A study of Mus musculus with 24 samples.

Results

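The genes described here encode chaperones and helpers of protein folding in the endoplasmic reticulum (ER): Hspa5, Hsp90b1, Dnajc3, Sdf2l1, Creld2, Manf, Calr, Pdia4, Herpud1 and Xbp1. These 10 genes were taken by symbol from a table of 24594 genes, and all 10 were among the 15682 genes abundant enough to be tested. The genes were chosen by their log2 fold changes in the deletion lines, which were already known when the list was drawn up. Their changes against wild type (WT) are therefore a description of these libraries, and the calls made from them support nothing about the group.

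RNA-seq was carried out on mouse embryonic stem cells (mESCs) of 129S6/SvEvTac background, grown untreated in serum with leukemia inhibitory factor on gelatin. The 6 deletion lines each lack an accessory subunit of an ISWI chromatin remodeler and each come from 1 CRISPR–Cas9 clone, so that the deletion and the history of a clone cannot be told apart. Batch A holds 2 libraries each of WT, Rsf1Δ (subunit of RSF) and WstfΔ (Baz1b, of WICH), and batches B, C and E hold 2 WT libraries with 2 of Tip5Δ (Baz2a, of NoRC), BptfΔ (of NURF) and Acf1Δ (Baz1a, of ACF and CHRAC), respectively. Batch D holds 3 WT libraries and 3 libraries labelled Cecr2Δ (of CERF). The reference of a line was WT of its own batch, and Rsf1Δ and WstfΔ share theirs. The labels give a batch only as a letter. The 24 libraries hold between 13.4 M and 36.7 M counts, and the 10 genes have between 191 and 49123 counts each per library.

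The targeted gene was lower in 4 of the lines, with log2 fold changes of -2.26 for Rsf1, -2.40 for Baz1b, -1.97 for Bptf and -1.72 for Baz1a. Baz2a was at a log2 fold change of -0.26 in Tip5Δ, short of the threshold (edgeR adjusted p = 0.0533). The libraries labelled Cecr2Δ, so named throughout, held more Cecr2 mRNA than WT and not less, at a log2 fold change of 0.37 (edgeR adjusted p = 0.000154). Per the study's methods the genotype of every line was checked by its DNA sequence and by western blot, which mRNA counts cannot show. All 4 libraries of batch C stand apart from the rest by holding the non-polyadenylated RNA Rpph1 at 3288 to 4824 normalized CPM (counts scaled to a common library total) against at most 3.39 in the other libraries. WT libraries of batches D and E and the Acf1Δ libraries differed more within their group than most, with chi-square values per gene of up to 20.4 between replicates over a lowest value of 1.38. This value sets count differences over sampling noise, so it also grows with depth. The lowest was that of WstfΔ (13.4 M and 13.6 M counts) and the highest that of WT of batch D (30.7 M to 36.1 M). The libraries labelled Cecr2Δ, at 28.6 M to 36.7 M, reached no more than 4.86.

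Proteins that enter the ER are bound by chaperones, folded, glycosylated and linked by disulfide bonds before they leave for the Golgi. When unfolded proteins build up, the sensors IRE1 (Ern1), PERK (Eif2ak3) and ATF6 start the unfolded protein response. ATF6 and the spliced form of XBP1 then raise transcription of chaperone genes through short promoter motifs called ER stress response elements, whereas PERK slows translation and favors translation of ATF4. Pluripotent cells keep this machinery running without added stress.

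Hspa5 encodes BiP, the HSP70 of the ER lumen, which binds unfolded chains and holds the sensors inactive. It lies on chromosome 2 from 34772090 to 34776529 (mm10). Hsp90b1 (chromosome 10, 86690841 to 86705444) encodes GRP94, the HSP90 of the lumen, and Dnajc3 (chromosome 14, 118937932 to 118981702) encodes P58IPK, a J-domain partner of BiP. Sdf2l1 (chromosome 16, 17130138 to 17132383) encodes a further lumenal partner of J-domain proteins. Calr (chromosome 8, 84842088 to 84846931) encodes calreticulin, the soluble chaperone that reads the sugars of glycoproteins and stores calcium. Pdia4 (chromosome 6, 47796141 to 47813512) encodes ERp72, a protein disulfide isomerase. Creld2 (chromosome 15, 88819646 to 88826681) and Manf (chromosome 9, 106888753 to 106891938) encode small proteins of the lumen that are induced by ER stress and can be secreted. Herpud1 (chromosome 8, 94386429 to 94395371) encodes a membrane protein that scaffolds ER-associated degradation, and Xbp1 (chromosome 11, 5520641 to 5525993) encodes the transcription factor whose mRNA IRE1 splices.

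The promoters are shown first because they are where the chaperone genes are known to be read together. A window from 250 bases before to 50 bases after the gene start was available for 9 of the 10 genes (RefSeq, GRCm38.p6), with Manf not among them. The windows were searched on both strands for the ER stress response element ERSE, which reads CCAAT, any 9 bases and CCACG, for ERSE-II, which reads ATTGG, any single base and CCACG, and for TGACGTG, the core of the unfolded protein response element. ERSE was present in 5 of the 9 windows, those of Hspa5, Hsp90b1, Dnajc3, Creld2 and Calr, and in 39 of 32851 promoters in all (0.119%). ERSE-II was present in the window of Herpud1 and in 12 promoters in all (0.0365%). The core TGACGTG was present in the window of Hspa5 alone and in 661 promoters in all (2.01%). The stretches around each ERSE or ERSE-II are given 5′ to 3′ on the strand of the gene, with the fixed letters of the motif in capitals. A motif on the opposite strand reads as CGTGG followed by ATTGG.
Hspa5 (chr2:34772005-34772063, plus strand): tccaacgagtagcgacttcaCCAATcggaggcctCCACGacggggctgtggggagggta
Hsp90b1 (chr10:86705513-86705676, minus strand): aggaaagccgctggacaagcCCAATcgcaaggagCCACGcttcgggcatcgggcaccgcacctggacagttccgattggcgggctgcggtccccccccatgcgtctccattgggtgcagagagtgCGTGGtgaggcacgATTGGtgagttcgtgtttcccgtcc
Dnajc3 (chr14:118937807-118937865, plus strand): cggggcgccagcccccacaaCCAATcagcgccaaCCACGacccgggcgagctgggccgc
Creld2 (chr15:88819500-88819558, plus strand): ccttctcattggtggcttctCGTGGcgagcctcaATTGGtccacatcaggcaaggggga
Calr (chr8:84847055-84847113, minus strand): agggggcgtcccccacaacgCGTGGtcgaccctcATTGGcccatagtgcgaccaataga
Herpud1 (chr8:94386357-94386407, plus strand): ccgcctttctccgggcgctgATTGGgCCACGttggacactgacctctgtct
Hsp90b1 holds a pair of matches, at 212 to 194 and 107 to 89 bases before its start. The match nearest to a start is ERSE-II of Herpud1, at 52 to 42 bases before it, followed by that of Hspa5 at 65 to 47. The windows of Sdf2l1, Pdia4 and Xbp1 hold none of the 3 motifs in these exact letters.

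**Figure D1:**
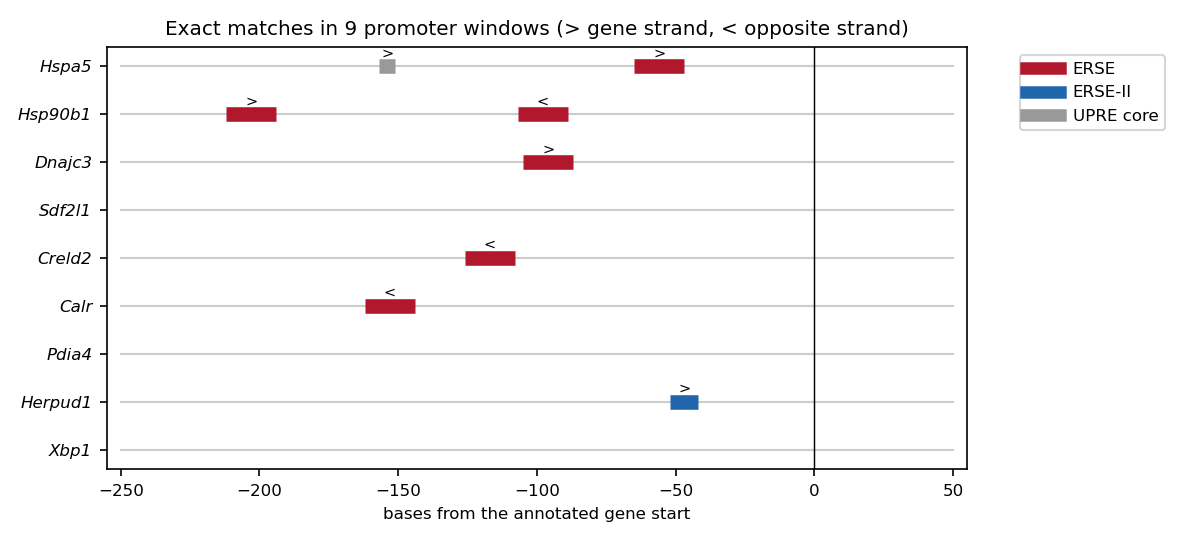
Positions of exact matches to ERSE, ERSE-II and TGACGTG in the promoter windows of 9 ER genes, in bases from the annotated start on the horizontal axis, with arrowheads for the strand. ERSE is found in 5 windows, ERSE-II in that of Herpud1, and no match in those of Sdf2l1, Pdia4 and Xbp1.

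In the 11 WT libraries the 10 genes differed widely in level. Per kilobase of the gene width in the table, Calr was at 305 ± 19.4 normalized CPM (SD, n = 11) and Hsp90b1 at 301 ± 44.0, and Calr was the higher of these in 6 of the 11 libraries, so that their order is not set. Hspa5 followed at 208 ± 25.6 and Pdia4 at 106 ± 10.2, each below the gene before it in all 11 libraries. Creld2 was at 50.3 ± 9.99 and Manf at 32.2 ± 3.22 normalized CPM per kilobase, again separate in every library. This order depends on the widths. The width of Manf, 3524 bases, is larger than the distance between its annotated start and end, so its level per kilobase is uncertain. Before division by width, Manf was the higher, at a mean of 114 normalized CPM against 68.7 for Creld2. Sdf2l1 (21.2 ± 2.68), Xbp1 (19.0 ± 2.44) and Dnajc3 (17.1 ± 2.49) lay close together. Sdf2l1 was above Xbp1 in 10 of 11 libraries and Xbp1 above Dnajc3 in 6 of 11. Herpud1 was the lowest, at 11.05 ± 1.32 normalized CPM per kilobase. Reads were counted without a stated use of strand, and Hspa5 overlaps Rabepk, Dnajc3 overlaps Gm4678 and Pdia4 overlaps Mir704 in the annotation, so that the counts of these 3 genes are less certain.

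WT cells were not alike across batches. In edgeR's test over the 11 WT libraries alone, 9 of the 10 genes differed between the 5 batches, as did 69.4% of 15413 genes tested in this way. The batch with the highest mean was 1.14-fold above the lowest for Calr, the only gene short of the threshold (edgeR adjusted p = 0.237), and 1.48-fold for Creld2. Batch A, which serves Rsf1Δ and WstfΔ, had the highest WT mean of the 5 batches for 4 genes, Hspa5, Hsp90b1, Dnajc3 and Manf. The lowest WT mean fell in batch C for 4 genes and in batch E for 4 genes.

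**Figure D2:**
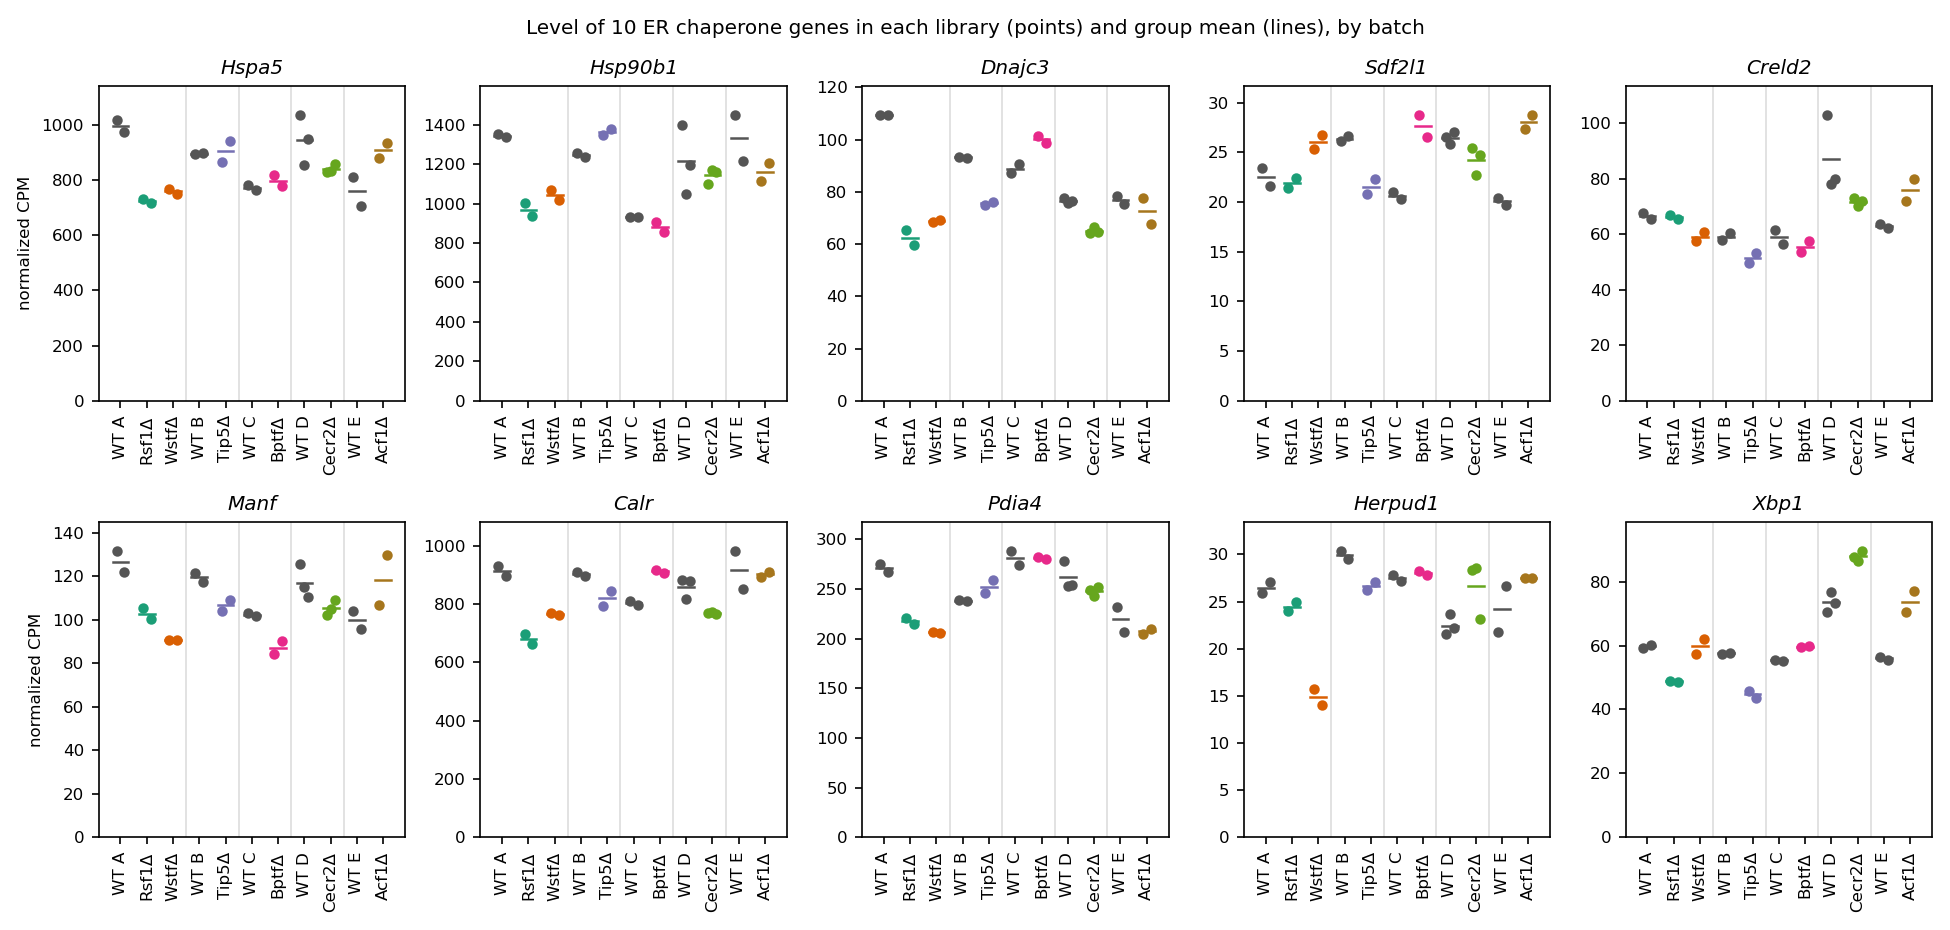
Normalized CPM (vertical axis, from 0) of the 10 ER genes in each of 24 libraries, by group on the horizontal axis with batches divided by grey lines. Points are libraries and short lines are group means. The Rsf1Δ and WstfΔ points lie below both WT points of batch A for 8 of the 10 genes each. For Dnajc3 and Calr they lie below all 11 WT libraries.

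Most of the 10 genes were lower in Rsf1Δ and in WstfΔ than in WT of batch A. Of the 10 genes, 7 fell in Rsf1Δ at an adjusted p under 0.01, against 13.1% of all genes tested, and 0 rose, against 7.45%. In WstfΔ 7 also fell, against 18.3% of all genes, and 0 rose, against 16.4%. Both libraries lay below both WT libraries of the batch for 8 of the 10 genes in Rsf1Δ, against 34.4% of all genes, and for 8 in WstfΔ, against 40.8%. Under the stricter rule that also asks for an absolute log2 fold change over 1, 0 of the 10 genes passed in any line, against 5.91% of all genes in Rsf1Δ, 10.4% in WstfΔ, 2.72% in Tip5Δ, 13.8% in BptfΔ, 4.45% in Acf1Δ and 3.11% in the libraries labelled Cecr2Δ. The median log2 fold change of the 10 genes was -0.31 in Rsf1Δ and -0.38 in WstfΔ, beside 0.00 and -0.03 over all genes. Because both lines share the WT libraries of batch A, their values are not independent of each other. In a model without batch, which sets each line against all 11 WT libraries, 1 gene fell in Rsf1Δ (Calr) and 1 in WstfΔ (Herpud1).

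BiP mRNA (Hspa5) was at 1019 and 973 normalized CPM in WT of batch A, at 732 and 718 in Rsf1Δ and at 769 and 751 in WstfΔ. Both lines lay below WT of their batch, yet 1 WT library of batch E, at 706, lay below all 4 of them. The log2 fold change was -0.46 (SE 0.070) in Rsf1Δ and -0.39 (SE 0.071) in WstfΔ. GRP94 mRNA (Hsp90b1) was at 1353 and 1336 in WT, 1003 and 937 in Rsf1Δ and 1070.3 and 1020.3 in WstfΔ. It fell by 0.47 (SE 0.086) and 0.36 (SE 0.086) on the log2 scale, and here too WT libraries of another batch, batch C at 930.2 and 932, were lower. Without WstfΔ replicate 2 the Hsp90b1 call in WstfΔ was lost.

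Dnajc3 showed the largest decrease of the list in Rsf1Δ. WT libraries of batch A were at 109.5 and 109.6 normalized CPM, Rsf1Δ at 65.3 and 59.8, and WstfΔ at 68.6 and 69.4. All 4 deletion libraries lay below each of the 11 WT libraries, whose lowest value was 75.3. The log2 fold change was -0.81 (SE 0.063) in Rsf1Δ and -0.67 (SE 0.065) in WstfΔ, so that the level fell by 42.9% in Rsf1Δ and fell by 37.03% in WstfΔ. In the model without batch they were -0.49 (adjusted p = 0.0327) and -0.35 (adjusted p = 0.0639).

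Calreticulin mRNA (Calr) was at 931 and 897 in WT, 698 and 662 in Rsf1Δ and 769 and 762 normalized CPM in WstfΔ. As for Dnajc3, all 4 deletion libraries were below every WT library, the lowest of which was at 795. Calr fell by 0.43 (SE 0.059) in Rsf1Δ, a call kept under each alternative tried, and by 0.26 (SE 0.059) in WstfΔ, a call lost without WT replicate 1 of batch A or WstfΔ replicate 2. ERp72 mRNA (Pdia4) was at 275 and 267 in WT, 221 and 215 in Rsf1Δ and 207 and 206 in WstfΔ. Its log2 fold changes were -0.32 (SE 0.059) and -0.39 (SE 0.060), and only the WstfΔ libraries lay below all 11 WT libraries.

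Manf was at 132 and 122 normalized CPM in WT, 105 and 100.3 in Rsf1Δ and 90.9 and 90.8 in WstfΔ. The log2 fold change was -0.30 (SE 0.076) in Rsf1Δ and -0.48 (SE 0.078) in WstfΔ. The Rsf1Δ call was lost in 6 of 15 alternatives, among them leaving out WT replicate 1 of batch A or either Rsf1Δ library, whereas the WstfΔ libraries were below all 11 WT libraries. Creld2 and Sdf2l1 passed the test in neither of these lines. Creld2 was at 67.7 and 65.6 in WT, 67.0 and 65.6 in Rsf1Δ and 57.5 and 60.6 in WstfΔ, with log2 fold changes of -0.01 (95% interval -0.20 to 0.18) and -0.17 (-0.37 to 0.02). Sdf2l1 was at 23.5 and 21.6 in WT, 21.4 and 22.4 in Rsf1Δ and 25.4 and 26.7 in WstfΔ, with log2 fold changes of -0.04 (95% interval -0.20 to 0.12) and 0.21 (0.04 to 0.38).

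Herpud1 and Xbp1 parted the lines. Herpud1 was at 25.9 and 27.04 normalized CPM in WT of batch A, at 24.01 and 24.9 in Rsf1Δ and at 15.7 and 13.98 in WstfΔ, where it rested on 218 and 191 counts. The WstfΔ libraries were far below the lowest of the 11 WT libraries, at 21.6, and Rsf1Δ was within the WT range. Its log2 fold change was -0.83 (SE 0.11) in WstfΔ, a decrease of 43.9% kept under each alternative tried, and -0.11 (95% interval -0.31 to 0.08) in Rsf1Δ. Xbp1 was at 59.3 and 60.1 in WT, 49.0 and 48.7 in Rsf1Δ and 57.4 and 62.0 in WstfΔ. The Rsf1Δ libraries were below all 11 WT libraries, and the WstfΔ libraries lay around WT of their batch. Xbp1 fell by 0.29 (SE 0.063) in Rsf1Δ, a call lost without WT replicate 2 of batch A or Rsf1Δ replicate 2, and was at 0.00 (95% interval -0.13 to 0.13) in WstfΔ.

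Set directly against each other within batch A, WstfΔ and Rsf1Δ differed in 2 of the 10 genes. Herpud1 was lower in WstfΔ, with a log2 difference of -0.72 (SE 0.11), and 15.8% of all genes were lower in this comparison. Xbp1 was higher in WstfΔ, with a difference of 0.29 (SE 0.065), and 17.5% of all genes were higher. The Xbp1 difference missed the threshold without WstfΔ replicate 2 (adjusted p = 0.0282). For the other 8 genes the difference was short of the threshold, with intervals that reach, for example, from -0.08 to 0.21 for Hspa5 and from 0.01 to 0.28 for Dnajc3.

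**Figure D3:**
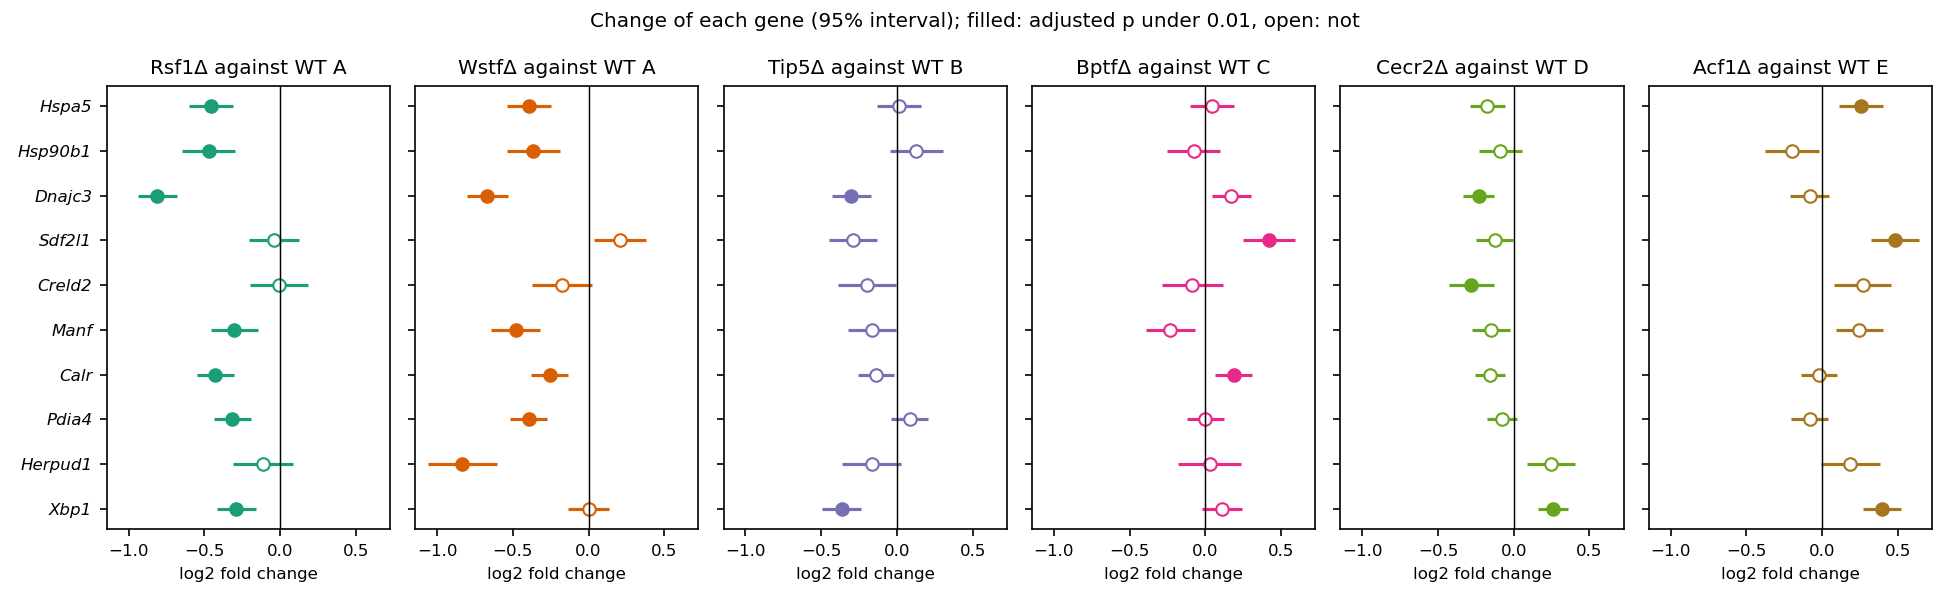
Log2 fold change of the 10 ER genes in each line against WT of its batch (horizontal axis), with 95% intervals as bars. Filled points passed an adjusted p under 0.01 and open points did not. Rsf1Δ and WstfΔ have 7 filled points each, all below 0, and Acf1Δ has 3, all above 0.

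The 4 other lines showed fewer calls and no common direction. In Tip5Δ 2 genes fell, against 6.23% of all genes, and 0 rose, against 2.84%. Xbp1 was at 57.4 and 57.7 normalized CPM in WT of batch B and at 45.7 and 43.7 in Tip5Δ, the lowest values in all 24 libraries, with a log2 fold change of -0.37 (SE 0.063). Dnajc3 was at 93.4 and 93.1 in WT and 75.1 and 76.3 in Tip5Δ, with a log2 fold change of -0.30 (SE 0.062). The Tip5Δ libraries were below WT of their batch for both genes, but the Dnajc3 call was lost without any 1 of the 4 libraries of the batch, each left out in turn. In a fit of batch B alone 6 genes fell and 1 rose. Without batch in the model, 0 fell.

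In BptfΔ 2 genes rose, against 21.4% of all genes, and 0 fell, against 20.2%. Sdf2l1 was at 21.0 and 20.3 in WT of batch C and at 28.8 and 26.5 in BptfΔ, an increase of 0.42 (SE 0.083) on the log2 scale. Both BptfΔ libraries were above WT of their batch, and 1 of them, at 28.8, was above all 11 WT libraries. Calr was at 809 and 795 in WT and 918 and 907 in BptfΔ, with a log2 fold change of 0.19 (SE 0.059), a call lost in 8 of 14 alternatives, among them leaving out any of the 4 libraries of batch C. The largest decrease was that of Manf, at 103 and 102 in WT and 84.4 and 90.2 in BptfΔ, with a log2 fold change of -0.23 (95% interval -0.39 to -0.07) that did not pass. Without batch in the model both increases were lost, with Sdf2l1 at 0.23 (edgeR adjusted p = 0.107) and Calr at 0.06 (edgeR adjusted p = 0.513), and 2 genes fell instead, Hsp90b1 (-0.46) and Manf (-0.38).

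In the libraries labelled Cecr2Δ 2 genes fell, against 8.83% of all genes, and 1 rose, against 9.52%. Xbp1 rose from 70.4, 76.9 and 73.4 in WT of batch D to 87.8, 86.6 and 89.6 normalized CPM, a log2 fold change of 0.26 (SE 0.049). These were the highest Xbp1 values in all 24 libraries. Dnajc3 fell from 77.7, 75.6 and 76.4 to 64.3, 66.7 and 64.5, a log2 fold change of -0.23 (SE 0.051). Both groups were apart for each of these genes, and both calls were kept under each alternative tried. Creld2 was at 103, 78.2 and 79.7 in WT and 73.1, 70.1 and 71.9 in the labelled libraries, with a log2 fold change of -0.28 (SE 0.073). This call rests on the first WT library, which was the highest of all 24, and was lost without it, as it was without any 1 of the 3 labelled libraries. The call was also lost with only these libraries and their own WT in the fit. Its sign turned in the model without batch, at 0.06.

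In Acf1Δ 3 genes rose, against 15.1% of all genes, and 0 fell, against 16.7%. Sdf2l1 was at 20.4 and 19.7 normalized CPM in WT of batch E and 27.3 and 28.8 in Acf1Δ, with a log2 fold change of 0.48 (SE 0.077), the largest increase among the 60 comparisons of a gene and a line. Xbp1 was at 56.6 and 55.5 in WT and 70.6 and 77.0 in Acf1Δ, with a log2 fold change of 0.40 (SE 0.061). Hspa5 was at 813 and 706 in WT and 882 and 935 in Acf1Δ, with a log2 fold change of 0.26 (SE 0.070). This call was lost with only Acf1Δ and its own WT in the fit, and without WT replicate 2 of batch E or Acf1Δ replicate 2. Acf1Δ was above WT of its batch for all 3 genes, and only Sdf2l1 lay above all 11 WT libraries. Hsp90b1 was at 1452 and 1216 in WT and 1116 and 1206 in Acf1Δ, with a log2 fold change of -0.20 (95% interval -0.38 to -0.02) that did not pass. Without batch in the model, 0 genes rose in Acf1Δ.

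Across the 60 comparisons 24 passed, 18 of them decreases and 6 increases. Dnajc3 and Xbp1 passed in 4 lines each, Hspa5 and Calr in 3, and Creld2 and Herpud1 in 1. Dnajc3 moved only down where it passed, whereas Xbp1 fell in Rsf1Δ and Tip5Δ and rose in Acf1Δ and in the libraries labelled Cecr2Δ. Summed over the 10 genes, the level was 3997 and 3880 normalized CPM in WT of batch A, 2986 and 2854 in Rsf1Δ and 3131 and 3062 in WstfΔ. Sums in the 11 WT libraries ranged from 3116 to 4022, so that 3 of these 4 deletion libraries were below every WT library and the fourth was within the range by little. The mean sum differed from WT of the batch by -25.9% in Rsf1Δ, -21.4% in WstfΔ and -8.25% in the libraries labelled Cecr2Δ. In batch D the sums were 4022, 3369 and 3668 in WT and 3331, 3397 and 3418 in the labelled libraries. The groups of batch D thus overlapped, and the highest sum was that of WT replicate 1. In Tip5Δ, BptfΔ and Acf1Δ the difference in the mean sum was -0.0751%, 2.93% and 0.172%. The sum is weighted to the most abundant genes. The median log2 fold change of the 10 genes was -0.17 in Tip5Δ, 0.04 in BptfΔ and 0.21 in Acf1Δ, beside -0.01, 0.01 and -0.03 over all genes. In the libraries labelled Cecr2Δ it was -0.14, beside 0.00.

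In a test of whether all 6 lines share the same change, the lines differed for all 10 genes and for 65.3% of all genes. The widest spans between lines were 1.08 on the log2 scale for Herpud1, from -0.83 in WstfΔ to 0.25 in the libraries labelled Cecr2Δ, and 0.98 for Dnajc3, from -0.81 in Rsf1Δ to 0.17 in BptfΔ. The narrowest was 0.48 for Pdia4.

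Cells of the extraembryonic endoderm, which secrete much matrix and can arise in mESC cultures, were followed by 12 markers, 10 of which were abundant enough to be tested. In bulk libraries, fewer cells of a type and less RNA per cell cannot be told apart. The summed marker level was 1605 to 2040 normalized CPM in WT of batch A, 566 to 619 in Rsf1Δ and 588 to 627 in WstfΔ. All 10 tested markers fell in Rsf1Δ, against 13.1% of all genes, and 8 fell in WstfΔ, against 18.3%, with median log2 fold changes of -1.31 and -1.54. Afp had 0 counts in the libraries labelled Cecr2Δ, WstfΔ and Tip5Δ, and none of the 12 was at 0 in Rsf1Δ or WT of batch A. Tip5Δ was at 361 to 372 against 1856 to 1986 in WT, and BptfΔ at 166 to 172 against 1179 to 1300.2. All 10 tested markers were lower in each, against 6.23% and 20.2% of all genes, with median log2 fold changes of -2.31 and -3.67. The libraries labelled Cecr2Δ were at 122 to 130.4 against 485 to 535 (10 lower, against 8.83% of all genes, median -2.00). Acf1Δ was at 1107 to 1483 against 995 to 1199 (3 higher and 1 lower, against 15.1% and 16.7% of all genes, median 0.24). Ttr had 0 counts in BptfΔ, in WT of batch D and in the libraries labelled Cecr2Δ. Fibroblast markers (7 genes) were low, at 18.4 to 19.1 normalized CPM in WT of batch A, 9.19 to 10.2 in Rsf1Δ and 17.3 to 19.8 in WstfΔ, with Postn at 0 counts in both lines. Of the 4 tested, 3 fell and 0 rose in Rsf1Δ, beside 13.1% and 7.45% of all genes. In WstfΔ 3 fell and 1 rose, beside 18.3% and 16.4%. Their median log2 fold changes were -2.21 in Rsf1Δ and -1.89 in WstfΔ. Trophectoderm markers (6 genes) were at 75.8 to 78.0 in WT of batch A, 44.25 to 44.3 in Rsf1Δ and 40.2 to 42.0 in WstfΔ. In Acf1Δ, where 3 of the 10 ER genes rose, the trophectoderm sum was 19.9 to 22.2 against 60.5 to 62.4 in WT. The fibroblast sum there was 12.8 to 12.99 against 24.4 to 24.5, with 3 of the 4 tested fibroblast markers lower (median -2.94), against 16.7% of all genes. In BptfΔ the trophectoderm sum was 19.9 to 23.1 against 49.7 to 50.3 and the fibroblast sum 2.54 to 3.11 against 7.88 to 8.61. In Tip5Δ the trophectoderm sum was 52.8 to 53.3 against 65.4 to 69.0 and the fibroblast sum 17.6 to 22.2 against 31.7 to 32.2. In the libraries labelled Cecr2Δ the trophectoderm sum was 54.6 to 59.2 against 42.0 to 52.2 and the fibroblast sum 15.76 to 15.79 against 16.4 to 18.3. Mesoderm markers were at no more than 9.46 in any library. Markers of pluripotent cells were detected throughout, with sums from 2527 to 4117. In batch A they were at 2527 to 2618 in WT, 3464 to 3468 in Rsf1Δ and 3763 to 3809 in WstfΔ, above WT where the chaperone sum was below it. In BptfΔ, where the chaperone sum was near WT, they were at 3898 in both libraries against 2611 to 2677 in WT, and in Tip5Δ at 3020.0 to 3119 against 3086 to 3095. Acf1Δ was at 3762 to 3911 against 3182 to 3390.3, and the libraries labelled Cecr2Δ were at 3892 to 4117 against 3436 to 3705. The part of these lists in the chaperone values was not tested.

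**Figure D4:**
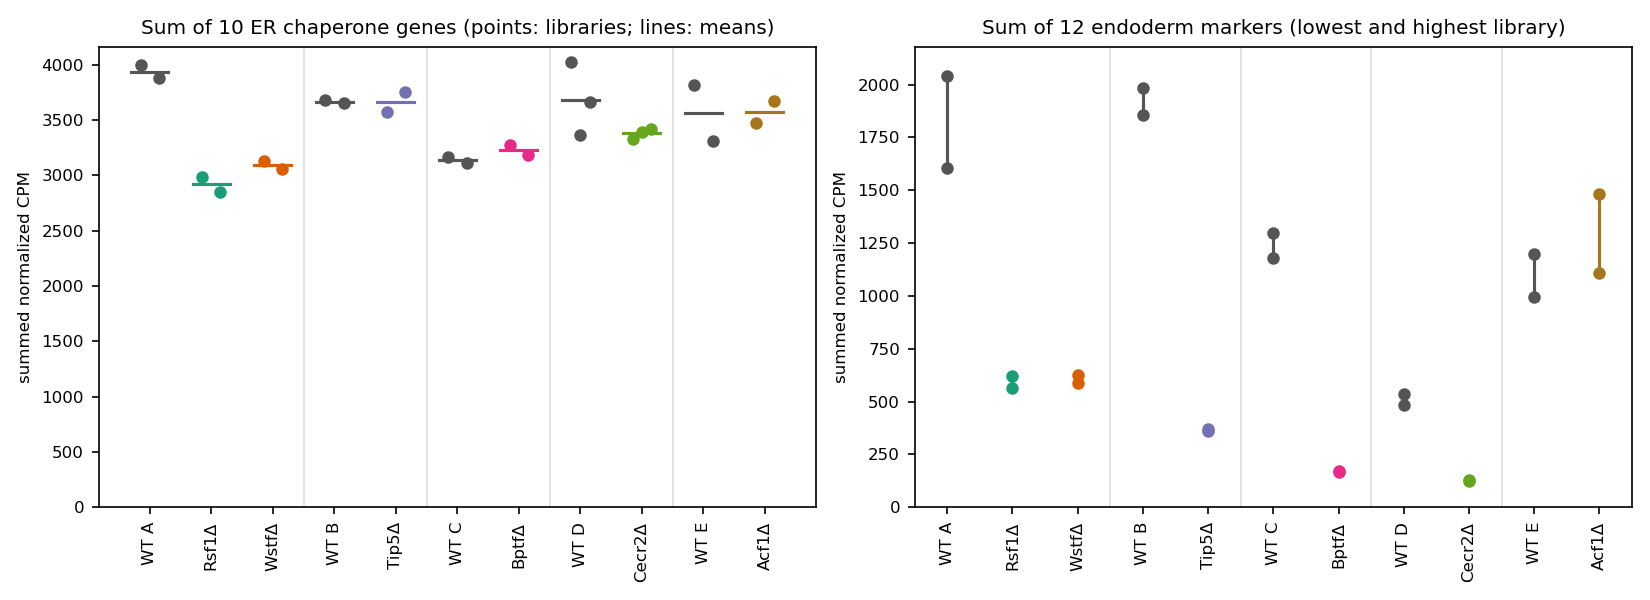
Left, summed normalized CPM of the 10 ER genes in each library (points) with group means (lines). Right, the lowest and highest summed normalized CPM of 12 extraembryonic endoderm markers in each group. The chaperone sum is lowest in Rsf1Δ and WstfΔ, and the marker sum is lowest in BptfΔ and in the libraries labelled Cecr2Δ.

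To see how far the surrounding machinery moved, 157 other ER genes in 7 lists by textbook role were taken from the same fit, and 156 of them were tested. In Rsf1Δ 42 of them fell and 4 rose, which is 26.9% and 2.56% beside the 13.1% and 7.45% of all genes. In WstfΔ 51 fell and 6 rose, or 32.7% and 3.85%. Their median log2 fold change was -0.15 in Rsf1Δ and -0.14 in WstfΔ. In Tip5Δ 23 fell and 4 rose, or 14.7% and 2.56% beside 6.23% and 2.84% of all genes. In BptfΔ 25 fell and 31 rose, or 16.0% and 19.9%, both under the 20.2% and 21.4% of all genes. In the libraries labelled Cecr2Δ 18 fell and 9 rose, or 11.5% and 5.77% beside 8.83% and 9.52%. In Acf1Δ 20 fell and 44 rose, or 12.8% and 28.2% beside 16.7% and 15.1%. In the model without batch, 2 fell in Rsf1Δ, 5 in WstfΔ and 1 in Tip5Δ, and 1 rose in Acf1Δ.

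Disulfide isomerases and oxidases were the list with the highest share of decreases in both lines of batch A. Of 17 genes, 9 fell and 1 rose in Rsf1Δ, and 11 fell and 0 rose in WstfΔ, with medians of -0.38 and -0.43. The decreases are 52.9% and 64.7% of the list, beside 13.1% and 18.3% of all genes, and the increase in Rsf1Δ is 5.88%, beside 7.45%. The 0 increases in WstfΔ stand beside 16.4% of all genes. Qsox1, a sulfhydryl oxidase, was at 23.3 in Rsf1Δ, 20.8 in WstfΔ and 88.6 normalized CPM in WT, with log2 fold changes of -1.93 (edgeR adjusted p = 3.94e-15) and -2.09 (edgeR adjusted p = 1.87e-15). Pdia5, a disulfide isomerase, fell by 0.65 in Rsf1Δ, 1.01 in WstfΔ, 0.58 in Tip5Δ and 0.76 in BptfΔ on the log2 scale. Qsox1 also fell in Tip5Δ (-1.68), BptfΔ (-0.97) and the libraries labelled Cecr2Δ (-1.25), where the endoderm markers were low as well. It was at -0.11 in Acf1Δ (edgeR adjusted p = 0.312). The part of the endoderm markers in the Qsox1 values was not tested.

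Among 24 other lumenal chaperones and co-chaperones, 9 fell and 1 rose in Rsf1Δ, and 8 fell and 2 rose in WstfΔ. These are 37.5% and 4.17% in Rsf1Δ, beside 13.1% and 7.45% of all genes, and 33.3% and 8.33% in WstfΔ, beside 18.3% and 16.4%. Serpinh1, the collagen chaperone HSP47, fell by 1.35 in Rsf1Δ and 0.81 in WstfΔ, and Uggt2, which marks misfolded glycoproteins with glucose, fell by 0.99 and 1.15. Uggt2 also fell by 0.98 in BptfΔ and 0.58 in Acf1Δ. Clgn, the calnexin relative calmegin, rose in Rsf1Δ (0.79) and Acf1Δ (0.63) and fell in BptfΔ (-0.43). Creld1 rose in WstfΔ (0.60) and BptfΔ (0.66), and Fkbp10 in WstfΔ (0.55), BptfΔ (0.74) and Tip5Δ (0.39). Serpinh1 also fell in the libraries labelled Cecr2Δ (-0.65), Tip5Δ (-1.62) and BptfΔ (-0.96), and rose by 0.41 in Acf1Δ. In the list of ER-associated degradation, 7 of 27 genes fell and 0 rose in Rsf1Δ, and 9 fell and 1 rose (Rnf5) in WstfΔ. The decreases are 25.9% and 33.3% of the list, beside 13.1% and 18.3% of all genes. Ube2j1, a conjugating enzyme of the ER membrane, fell by 0.59 in Rsf1Δ, 0.55 in WstfΔ and 0.40 in the libraries labelled Cecr2Δ. Derl3, a derlin of the export channel, fell by 1.27 in WstfΔ and rose by 0.62 in the libraries labelled Cecr2Δ.

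Of 25 genes of N-glycosylation, 3 fell in Rsf1Δ (Alg8, Magt1 and Stt3b), or 12% beside 13.1% of all genes, and 10 fell in WstfΔ, or 40% beside 18.3%. Alg13, which adds an early sugar of the glycan, fell by 0.57 in WstfΔ, by 0.54 in BptfΔ and by 0.65 in Acf1Δ, and rose by 0.55 in the libraries labelled Cecr2Δ. Of 24 genes of transport between ER and Golgi, 7 fell in Rsf1Δ, or 29.2%, and 3 in WstfΔ (Surf4, Sec24d and Tmed9), or 12.5%, with the same shares of all genes beside them. Differences between the lines were not tested for these lists. Surf4, a cargo receptor, fell by 0.45 in Rsf1Δ, 0.50 in WstfΔ, 0.15 in the libraries labelled Cecr2Δ and 0.35 in Tip5Δ, and rose by 0.36 in Acf1Δ. Kdelr3, a receptor that returns lumenal chaperones to the ER, rose by 0.70 in WstfΔ, 0.75 in BptfΔ and 0.53 in Acf1Δ, and fell by 0.39 in Rsf1Δ and 0.75 in Tip5Δ. Targeting and translocation, the machinery of the signal recognition particle and the Sec61 channel, had 9 of 24 genes up and 1 down in Acf1Δ, or 37.5% and 4.17% beside 15.1% and 16.7% of all genes, among them Ssr2 (0.54) and Sec61a1 (0.46). Ssr2 also rose in BptfΔ (0.58) and Rsf1Δ (0.27) and fell in WstfΔ (-0.45) and Tip5Δ (-0.26), and Sec61a1 fell by 1.07 in BptfΔ. In Acf1Δ N-glycosylation had 8 of 25 up and 1 down, or 32% and 4%. Without WT replicate 2 of batch E these increases numbered 3 and 4, without Acf1Δ replicate 2 they numbered 4 and 5, and without WT replicate 1 they numbered 6 and 5. Over all 7 lists the count of 44 fell to 22, 25 and 26 in the same order.

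**Figure D5:**
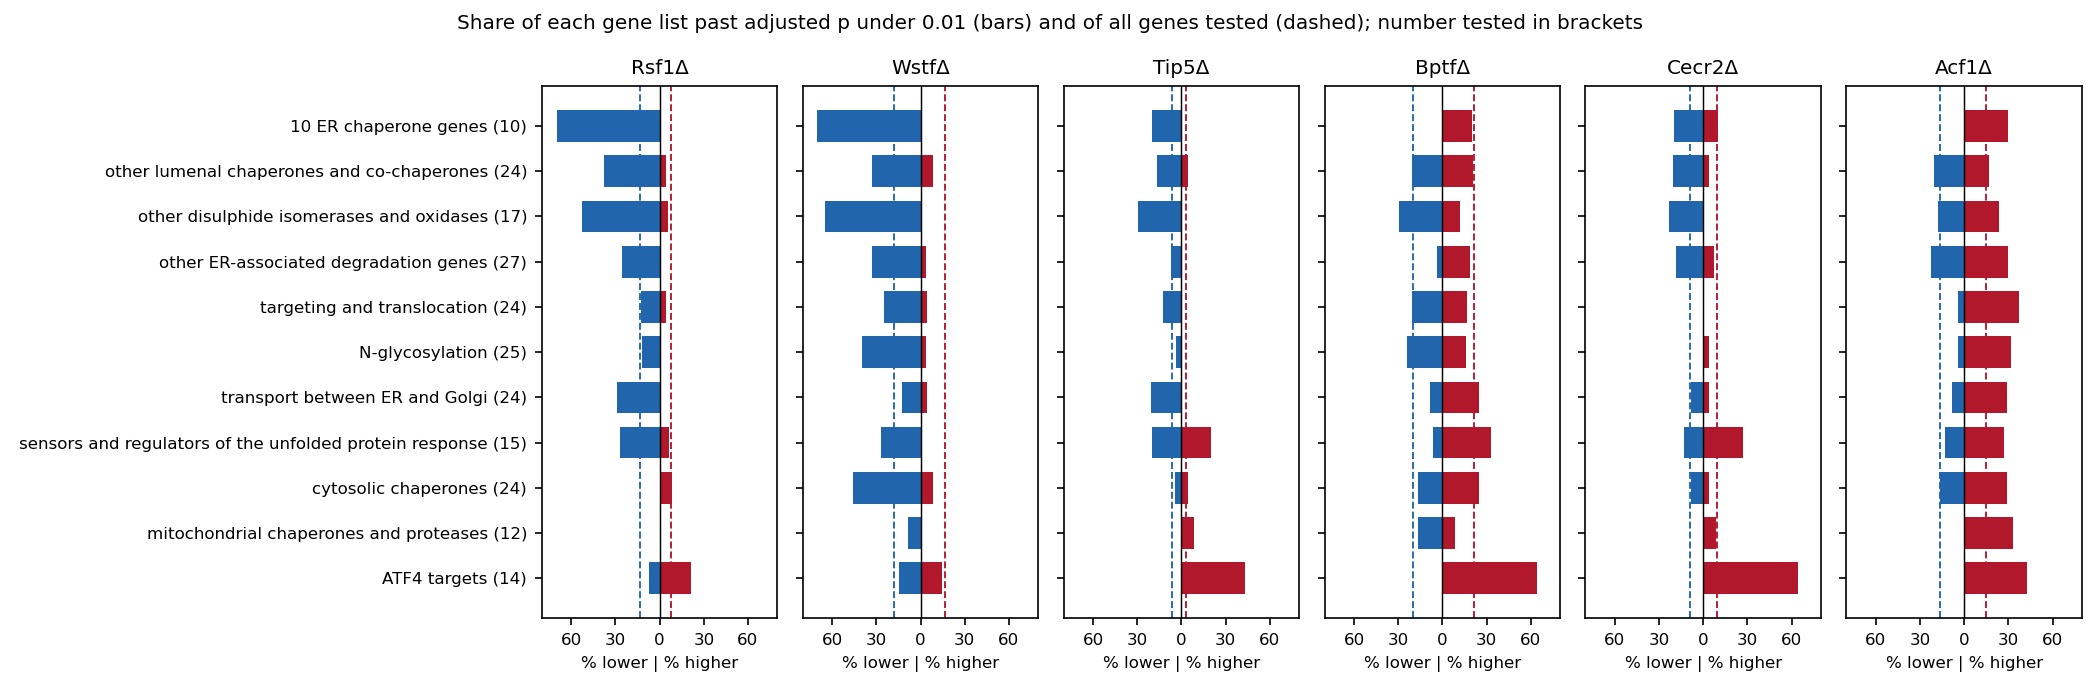
Share of each gene list that was lower (left, blue) or higher (right, red) than WT at an adjusted p under 0.01, in percent, for each line. Dashed lines give the share of all genes tested, and the number of genes tested stands in brackets. The 10 ER genes and the disulfide list reach furthest to the left in Rsf1Δ and WstfΔ.

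Of 15 sensors and regulators above these genes, 1 rose and 4 fell in Rsf1Δ, 0 rose and 4 fell in WstfΔ, 3 rose and 3 fell in Tip5Δ, and 5 rose and 1 fell in BptfΔ. In Acf1Δ, and likewise in the libraries labelled Cecr2Δ, 4 rose and 2 fell. The decreases in Rsf1Δ and WstfΔ are 26.7% of the list each, beside 13.1% and 18.3% of all genes, and the increases in BptfΔ 33.3%, beside 21.4%. In Tip5Δ 20% rose and 20% fell, beside 2.84% and 6.23%. In Acf1Δ 26.7% rose and 13.3% fell, beside 15.1% and 16.7%. The same shares in the libraries labelled Cecr2Δ stand beside 9.52% and 8.83%. The increases in Rsf1Δ are 6.67%, beside 7.45%, and the decreases in BptfΔ 6.67%, beside 20.2%. Ern1 (IRE1) passed in none of the 6 lines, with log2 fold changes from -0.18 in the libraries labelled Cecr2Δ to 0.30 in BptfΔ. Atf6 passed only in WstfΔ, where it fell from a mean of 123 to 96.5 normalized CPM (log2 fold change -0.35, edgeR adjusted p = 0.000357). It was at -0.12 in Rsf1Δ (edgeR adjusted p = 0.21), and the lines short of the threshold ranged from -0.17 in Acf1Δ to 0.19 in Tip5Δ. Eif2ak3 (PERK) fell in Rsf1Δ from 38.3 to 16.7 normalized CPM, a log2 fold change of -1.19 (edgeR adjusted p = 4.27e-12), and was at 0.08 in WstfΔ. It also fell in BptfΔ (-0.39) and rose in the libraries labelled Cecr2Δ (0.23). Atf4, the transcription factor downstream of PERK, rose by 0.85 in BptfΔ, 0.45 in the libraries labelled Cecr2Δ, 0.41 in Tip5Δ and 0.41 in Acf1Δ, and did not pass in Rsf1Δ (0.12) or WstfΔ (-0.14). Its target Ddit3 (CHOP) fell by 0.50 in WstfΔ and rose by 0.49 in Tip5Δ and 0.67 in BptfΔ. Trib3, a pseudokinase induced by ATF4 and CHOP, rose in 5 of the 6 lines, by 0.27 in Rsf1Δ to 0.69 in BptfΔ, and was at -0.04 in WstfΔ. Creb3l2, a membrane-bound factor related to ATF6, fell by 1.79 in Rsf1Δ and 1.14 in WstfΔ, and Creb3, another of this family, by 0.90 and 1.13. Both also fell in Tip5Δ, by 1.83 (Creb3l2) and 0.73 (Creb3), and in the libraries labelled Cecr2Δ, by 0.89 and 0.46. RNA counts per gene do not show splicing of Xbp1, cleavage of ATF6 or phosphorylation by PERK.

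The 10 genes did not move as a block from library to library. After each library was set against the WT mean of its batch, the 45 pairs of genes had a median Pearson r of 0.47 over the 24 libraries, from -0.31 for Hsp90b1 with Sdf2l1 to 0.94 for Dnajc3 with Calr. Libraries of a line share its deletion and its WT, so these r values describe the pattern and carry no p. Against the mean of the 9 others, Hspa5 was closest (r = 0.91), followed by Dnajc3 (0.84), Calr (0.83) and Manf (0.79), whereas Sdf2l1 was furthest (0.22), with Creld2 (0.44) and Xbp1 (0.45) next. Among 9470 genes with at least 10 CPM, the 10 with a pattern most like the mean of the 10 ER genes were Dnajb11 (r = 0.93), Surf4, Pdia3, Creb3, Itpripl2, Mapkapk2, Cers2, Cd63, Lzic and Myo1h (r = 0.89). Dnajb11 encodes ERdj3, a lumenal J-domain partner of BiP, and Pdia3 encodes ERp57, the isomerase that works with calreticulin. Of these genes 4 stood in the other ER lists, and so did 19 of the first 100, beside 1.54% of all 9470. Without setting libraries against WT of the batch, Dnajb11 alone stayed among the first 10.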

How the data were processed

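RNA of 24 mESC libraries was sequenced. The labels give poly(A) RNA for all of them, although the batch C libraries hold the non-polyadenylated RNA Rpph1. The authors aligned reads to mm10 with QuasR in spliced mode and deposited raw counts per gene of the UCSC knownGene annotation, with no normalization, beside a gene width in bases. The submitters' processing notes also name HISAT2 and bcl2fastq 2.17. The kit is named as stranded in the labels and not in the methods, and the use of strand in counting is not given in the sources used here. Of 24594 gene IDs 24570 matched RefSeq symbols, and 0 columns were left unused.

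Genes were filtered in R 4.3.3 with filterByExpr of edgeR 4.0.16 by genotype (15682 left). TMM factors gave normalized CPM, and the quasi-likelihood model (legacy form) held batch and genotype over all libraries. P-values were Benjamini-Hochberg adjusted over all genes tested, with 0.01 as the threshold. Log2 fold changes are those of the model, and SE is the fold change over the root of F. The common biological coefficient of variation was 0.0567. The model was tested on simulated data. The methods call the replicates independent, and each line is 1 clone, so p-values measure the spread between libraries of a clone.

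The members, gene lists and markers were chosen with earlier results of these data known. Named were the members, the sensors with Atf4 and Ddit3, at most 2 increases and 2 decreases per list and line among those past the threshold with libraries apart and a mean of at least 10 counts, the targeted genes, and the 10 genes most alike. Genes picked for 1 line were also given in other lines, so that a list can have over 2 in a line. Not every gene that this rule picks was named. Short lists were named in full after their values were seen. Alternatives were the newer quasi-likelihood fit, DESeq2 1.42.0, other scalings and filters, other sets of libraries, no batch term, a replicate block and a threshold of 0.05. Leaving out batch D was chosen after seeing the data. Promoter windows are from RefSeq (GRCm38.p6). No protein sequence was used here.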

Additional observations from a re-analysis of the deposited data

Results flagged for a closer look

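The change against WT differed between the 6 lines in a direct test for each of the 10 genes. This was the edgeR quasi-likelihood test that the 6 genotype terms are equal, adjusted over all genes tested. Equality was rejected for 65.3% of all genes. The adjusted p was 1.05e-08 for Dnajc3, 2.55e-08 for Xbp1, 6.82e-07 for Sdf2l1 and 1.49e-06 for Herpud1. For Hspa5 it was 8.61e-06, for Calr 1.85e-05, for Manf 0.000101 and for Pdia4 0.000277. The weakest were Hsp90b1 at 0.00277 and Creld2 at 0.00294. The genes were chosen for their changes in these lines, so these values are not independent evidence.

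A direct contrast between WstfΔ and Rsf1Δ, within batch A, also set apart 2 genes. Herpud1 differed by -0.72 on the log2 scale (WstfΔ minus Rsf1Δ, edgeR adjusted p = 7.21e-06), with means of 14.9 and 24.5 normalized CPM and both WstfΔ libraries lower. Xbp1 differed by 0.29 (edgeR adjusted p = 0.000702), with means of 59.7 and 48.9 normalized CPM and both WstfΔ libraries higher. For Xbp1 the mean in WT of the batch was 59.7 as well.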

How the results depend on the processing

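The calls rest most on the batch term. Without batch in the model, members lower were 1 in Rsf1Δ, 1 in WstfΔ, 0 in Tip5Δ, 2 in BptfΔ and 1 under the label Cecr2Δ, and 0 were higher in BptfΔ and 0 in Acf1Δ. Other ER genes higher were then 0 in Rsf1Δ, 1 in WstfΔ, 1 in Acf1Δ and 3 in the labelled libraries, and lower 2 in Rsf1Δ, 5 in WstfΔ, 1 in Tip5Δ, 1 in Acf1Δ and 11 in the labelled libraries. The members of Rsf1Δ and WstfΔ stayed within 1.5 times of 7 under the other alternatives. With only a line and its own WT, members lower were 6 in Tip5Δ (higher 1), 1 in BptfΔ and 1 in the libraries labelled Cecr2Δ, and other ER genes were 17 higher in WstfΔ, 9 higher and 51 lower in Tip5Δ, 5 higher in the labelled libraries, and 13 higher and 6 lower in Acf1Δ. In BptfΔ 1 member was lower with DESeq2, library size only, no filter, a mean of at least 10 counts or a threshold of 0.05, and 1 was higher with DESeq2 size factors or that mean. With no filter or a threshold of 0.05, 2 members were higher and 4 lower in the labelled libraries and 5 higher in Acf1Δ, with 1 lower there without the filter. The threshold of 0.05 gave 1 member higher and 13 other ER genes higher in WstfΔ, and 31 other ER genes lower in the labelled libraries. Library size only gave 2 members higher in WstfΔ against Rsf1Δ, and leaving out batch D gave 5 members higher in Acf1Δ. Without setting libraries against WT of the batch, 1 of the 10 genes most alike was in the ER lists. The cause of these differences was not tested.

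With the replicate number as a block, 1 member was higher in BptfΔ and 28 other ER genes were higher in Acf1Δ, and no other count of members or of all other ER genes moved by over 1.5 times. The calls of Manf in Rsf1Δ (log2 fold change -0.30, adjusted p = 0.013) and of Calr in BptfΔ (0.19, adjusted p = 0.0192) were lost. The numbers share no stated origin, and deviations of same-numbered libraries correlated at -0.0672 to 0.0453 over 13 pairs, so they were not taken as pairs.

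Leaving out 1 library at a time gave 1 member lower in Tip5Δ, 1 to 4 lower and 1 to 2 higher in the libraries labelled Cecr2Δ, 1 higher in BptfΔ, 0 to 1 lower in Acf1Δ and 0 to 1 higher in WstfΔ against Rsf1Δ. Other ER genes were then 1 to 3 higher in Rsf1Δ, 30 to 43 lower in WstfΔ, 2 to 4 higher and 14 to 15 lower in Tip5Δ, and 22 to 41 higher and 11 to 25 lower in Acf1Δ. Where a line keeps 1 library, it is assumed to vary like the other groups.

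Some log2 fold changes turned sign, none of them past the threshold under the setting that turned it. Creld2 in the libraries labelled Cecr2Δ, at -0.28, was the only called change among them, and turned without batch in the model. Creld2 in Rsf1Δ was at 0.0055 with DESeq2, 0.0055 with its size factors, 0.0019 with the mean of at least 10 counts and 0.042 without batch C (by library left out, -0.030 to 0.014), and Sdf2l1 in Rsf1Δ at 0.011 without batch C (-0.098 to 0.022). Pdia4 in BptfΔ was at -0.011 with DESeq2, -0.0160 with library size, -0.011 with DESeq2 size factors, -0.017 with that mean and -0.028 with only its own WT (-0.033 to 0.038). Xbp1 in WstfΔ was at -0.000537 without a filter, -0.0459 without batch and -3.00e-05 with the block (-0.055 to 0.057). Hspa5 in Tip5Δ was at -0.028 with library size (-0.047 to 0.074). Without batch, Pdia4 in Tip5Δ was at -0.014, Herpud1 in Tip5Δ at 0.049, Hspa5 in BptfΔ at -0.14, Xbp1 in BptfΔ at -0.047, Sdf2l1 and Creld2 in the labelled libraries at 0.044 and 0.061, and Calr in Acf1Δ at 0.041. By library left out, Hsp90b1 in the labelled libraries ranged from -0.18 to 0.022, and in Acf1Δ Calr from -0.13 to 0.083, Pdia4 from -0.17 to 0.000988 and Dnajc3 from -0.18 to 0.015.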

Other observations

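Of 24 cytosolic chaperones 0 fell in Rsf1Δ, against 13.1% of all genes, and 2 rose (Hspb1 and Hspa1b), or 8.33% beside 7.45%. In WstfΔ 11 fell, or 45.8% beside 18.3% of all genes, and 2 rose, or 8.33% beside 16.4%. The difference between the lines was not tested for the list. The decreases in WstfΔ included Hsph1, an HSP110 exchange factor, at a log2 fold change of -0.66 and subunits of the chaperonin TRiC such as Cct3 at -0.33. Of 12 mitochondrial chaperones and proteases 0 rose and 0 fell in Rsf1Δ, beside 7.45% and 13.1% of all genes. In WstfΔ 1 fell (Trap1), or 8.33% beside 18.3%, and 0 rose, beside 16.4%. In Acf1Δ 4 rose (Hspe1, Grpel1, Clpx and Trap1), or 33.3% beside 15.1%, and 0 fell, beside 16.7%.

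Of 14 targets of ATF4, 0 fell in BptfΔ, Tip5Δ, Acf1Δ and the libraries labelled Cecr2Δ, and Atf4 itself rose in each of them. In BptfΔ 9 rose, or 64.3% beside 21.4% of all genes, and in the labelled libraries 9 rose, beside 9.52%. In Tip5Δ 6 rose, or 42.9% beside 2.84%, and in Acf1Δ 6 rose, beside 15.1%. In Rsf1Δ 3 rose and 1 fell, or 21.4% and 7.14% beside 7.45% and 13.1%, and in WstfΔ 2 rose and 2 fell, or 14.3% each beside 16.4% and 18.3%. Asns, asparagine synthetase, was at log2 fold changes of 0.83 in BptfΔ, 0.81 in Acf1Δ and 0.54 in the libraries labelled Cecr2Δ, and Chac1, a glutathione-degrading enzyme, was at 0.89 in the libraries labelled Cecr2Δ and -0.85 in WstfΔ. The genes named in these paragraphs were chosen after their values were seen.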
